A study of Arabidopsis thaliana with 26 samples.

Results

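The effect of losing the RNA helicase MTR4 on 5′ ETS degradation intermediates was examined in Arabidopsis plants whose exosome core, Exo9, is catalytically inactive. The comparison sets the 2 libraries of mtr4 rrp41 RRP41Pi-Cat- against 4 control libraries, 2 of rrp41 RRP41Pi- and 2 of rrp41 RRP41Pi-Cat-, which were chosen by their genotype labels alone. These 6 libraries are part of a series of 26 and hold 30068 of its 224354 reads. All plants are Columbia (Col-0), and RNA was extracted from pooled rosette leaves. All 6 libraries carry a T-DNA insertion in RRP41 and a tagged RRP41 transgene whose product lacks phosphorolytic activity. In RRP41Pi-, residues that coordinate the phosphate are changed, and in RRP41Pi-Cat- an aspartate that coordinates magnesium is changed as well. Only the mtr4 plants carry in addition a T-DNA insertion in MTR4. The labels give 16 h light and 8 h dark for all samples, whereas the methods of the study describe equal hours of light and dark. Only reads of the 5′ ETS were recorded, so neither the MTR4 transcript nor the leaf identity of the samples could be checked in these data.

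The 5′ ETS is the spacer that precedes the 18S rRNA in the rRNA primary transcript and is excised and destroyed during ribosome biogenesis. Its removal in the nucleolus depends on the RNA exosome, whose core Exo9 works with the hydrolytic ribonucleases RRP44 and RRP6L2. MTR4 is the helicase that assists the nucleolar exosome. In yeast, Mtr4 belongs to the TRAMP complex, which adds short A tails to exosome substrates. In 3′RACE-seq, an adapter is ligated to the 3′ ends of RNA, and each read records where the encoded sequence stops and which untemplated nucleotides, if any, follow it. Ends are named by the length of the fragment in nt, counted from its first nucleotide.

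The stretch in which most ends fell is shown first, since all results refer to it. It runs from position 140 to position 200, and 85.4% of the reads of the 6 libraries ended in it. Capitals mark the last nucleotides of P163, P164, P166, P168, P178, P179, P180 and P186.
5′ ETS from 140 to 200: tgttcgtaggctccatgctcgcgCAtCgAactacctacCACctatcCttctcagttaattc
This stretch was matched to the TAIR10.1 assembly, which is not the rRNA repeat used by the authors. It lies on the plus strand of chromosome 3 from 14197254 to 14197314, where no gene is annotated, 363 nt upstream of the 18S rRNA gene AT3G41768. Further identical copies lie on chromosome 2, from 3283 to 3343, also 363 nt upstream of an annotated rRNA gene (AT2G01010), and from 7191300 to 7191360, within the annotated protein-coding gene AT2G16586. The reads do not tell these copies apart.

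The ends described in most detail lie in 2 stretches, and the last 20 nt of 8 of them are given with the final nucleotide in capitals. The first stretch lies around P166, the most frequent end in 3 of the 4 controls.
P163: cgtaggctccatgctcgcgC
P164: gtaggctccatgctcgcgcA
P166: aggctccatgctcgcgcatC
P168: gctccatgctcgcgcatcgA
The second lies just upstream of P186, the longest of the main intermediates, which is given for orientation although its share overlapped between the groups.
P178: cgcgcatcgaactacctacC
P179: gcgcatcgaactacctaccA
P180: cgcatcgaactacctaccaC
P186: gaactacctaccacctatcC

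The libraries held 7813 and 6658 reads in mtr4 rrp41 RRP41Pi-Cat-, 1621 and 1639 in rrp41 RRP41Pi-, and 8469 and 3868 in rrp41 RRP41Pi-Cat-, always given as replicate 1 and replicate 2. A floor of 3 reads corresponds to 0.0354% of the reads in the deepest of these libraries and to 0.185% in the shallowest. Shares are percentages of all reads of a library. For 2 libraries against 4, the two-sided exact permutation test has 15 relabelings and a smallest p of 0.0667, so no single measure could pass the threshold of 0.05. The scans over all positions were fitted with limma on log2 shares, with 0.5 reads added and Benjamini-Hochberg adjustment. Replicates are plants of a genotype grown at different times, according to the methods of the study.

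With MTR4 lost, the recorded shares of P166 and P168 were lower. Ends that were rare in the controls were more frequent, namely P163 and P164 and a ladder from P178 to P180. The mean end profiles of the 2 groups differed by a total variation distance of 28.2%, which is the part of the reads not shared by both profiles (exact permutation p = 0.0667, the smallest possible). For comparison, the replicates of a genotype lay 17.0% apart in mtr4 rrp41 RRP41Pi-Cat-, 27.3% in rrp41 RRP41Pi- and 19.8% in rrp41 RRP41Pi-Cat-. The distance between the groups is thus close to that between the rrp41 RRP41Pi- replicates. These replicates are single libraries of 1621 and 1639 reads, so their distance is not directly comparable with one between group means. The 2 control genotypes, rrp41 RRP41Pi- and rrp41 RRP41Pi-Cat-, lay 17.6% apart from each other. The mean end from 140 to 200 overlapped between the groups, with 172.0 ± 0.78 nt (SD, n = 2) in mtr4 rrp41 RRP41Pi-Cat- and 171.5 ± 0.98 nt (SD, n = 4) in the controls (exact permutation p = 0.6).

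**Figure D1:**
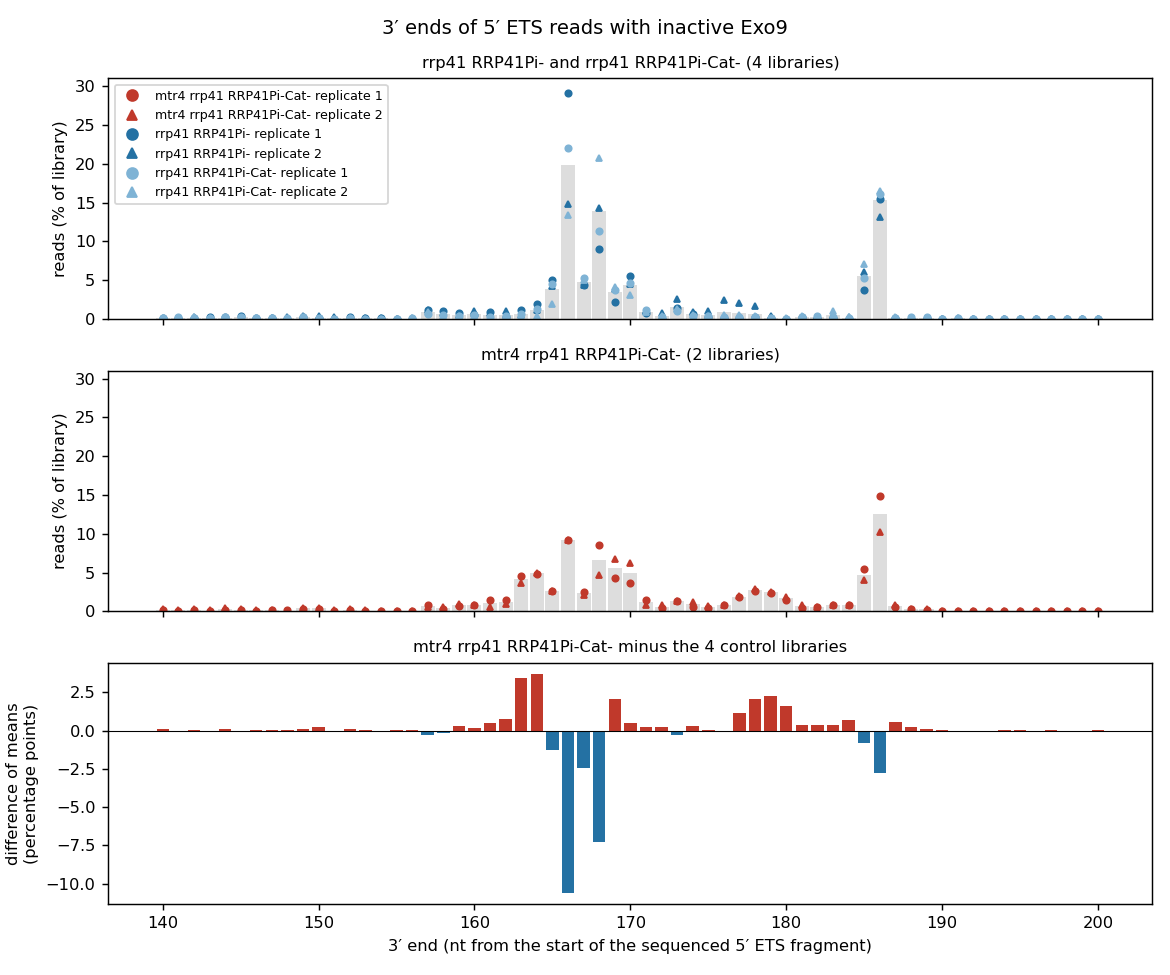
Share of reads (% of library) against the 3′ end in nt, in the 4 control libraries (top) and the 2 mtr4 rrp41 RRP41Pi-Cat- libraries (middle), with points for libraries and grey bars for group means. The bottom plot gives the difference of the means in percentage points, which is lowest at P166 (-10.6) and highest at P164 (3.69).

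P180 and P179 were the ends that rose past the threshold of the scan. P180 had 0%, 0.0610%, 0.0590% and 0.0776% of the reads in the 4 controls, in the order given above, which are 0, 1, 5 and 3 reads. With MTR4 lost it had 1.47% and 1.86%, or 115 and 124 reads. Both mtr4 libraries lay far above every control (log2 fold change 4.70 ± 0.66 (SE), limma adjusted p = 0.00353). P179 had 2.42% and 2.49% in the mtr4 libraries against 0.185%, 0.366%, 0.142% and 0.0776% in the controls (log2 fold change 3.74 ± 0.70 (SE), limma adjusted p = 0.0187). These 2 of 124 ends, 1.61%, were the ones called higher by limma on log2 shares, which called none lower (0%), while 11 ends had an unadjusted p under 0.05. Lower calls were made under other settings, 2 with voom weights, 2 on the arcsine scale and 1 in thinned libraries. Both calls rest on having 2 mtr4 libraries. Without either of them no end passed, with adjusted p of 0.0504 and 0.0835 for P180 and of 0.204 and 0.214 for P179. The call of P179 was also lost without replicate 1 of rrp41 RRP41Pi- (adjusted p = 0.0536) and without replicate 1 of rrp41 RRP41Pi-Cat- (adjusted p = 0.0604), as well as with no filter on low counts (adjusted p = 0.0606).

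P178 belongs to the same small ladder but did not pass. It had 2.57% and 2.88% of the reads in the mtr4 libraries and 0.247%, 1.71%, 0.307% and 0.440% in the controls (limma adjusted p = 0.192). Replicate 2 of rrp41 RRP41Pi- was the highest control here, at 28 reads, and the groups still did not overlap. Summed from P178 to P184, the share was 9.28% and 10.3% with MTR4 lost against 0.987%, 3.29%, 1.52% and 2.38% in the controls. The difference of 7.73 percentage points exceeded the spread within either group, whose SD was 0.70 (n = 2) and 1.01 (n = 4), with an exact permutation p of 0.0667. When each library was left out in turn, it ranged from 7.23 to 8.23 points. Among reads recorded without a tail it was 6.47 points. A read of P178 or P182 with a single added A is recorded as untailed P179 or P183, since these end in an encoded A. Reads recorded as untailed may thus include tailed molecules, also at P179.

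P163 and P164, which end 3 and 2 nt before P166, were also more frequent. P163 did not pass the threshold of the scan, with 4.62% and 3.66% in the mtr4 libraries against 1.11%, 0.549%, 0.697% and 0.491% in the controls (limma adjusted p = 0.0700). P164 had 4.85% and 4.96% against 1.97%, 1.22%, 1.26% and 0.414% (limma adjusted p = 0.192). In both cases the lower mtr4 library was more than 2 times the highest control. P164 ends in an encoded A, so a read of P163 with an A tail is recorded as P164. If the encoded A before a recorded A tail was counted as tail, the difference between the groups was 4.71 points at P163 and 2.41 at P164. The groups overlapped at neither end. A read of P163 with a single added A is recorded as untailed P164 and was not moved.

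Lower recorded shares were found at P166, P167 and P168. P166 took 9.24% and 9.25% of the reads in the mtr4 libraries, whereas the controls had 29.1%, 14.8%, 22.1% and 13.3%. The mtr4 libraries were nearly equal and lay below all controls, but the controls themselves spread over a factor of more than 2. The mean difference was -10.6 points (exact permutation p = 0.133, limma adjusted p = 0.525). P166 is followed by G and A, and the authors removed reads whose second tail nucleotide equals the reference base. Molecules of P166 with runs of A are thus missing from its share. How much this adds to the difference was not tested. P168 had 8.56% and 4.64% against 9.07%, 14.3%, 11.4% and 20.8%. Its groups were barely apart, as replicate 1 of mtr4 rrp41 RRP41Pi-Cat- lay just under the lowest control (difference -7.29 points, exact permutation p = 0.133). P167 had 2.52% and 2.13% against 4.44%, 4.39%, 5.35% and 5.02%, the tightest of the 3 comparisons (difference -2.47 points, exact permutation p = 0.0667, limma adjusted p = 0.5). Molecules of P167 and P168 with A tails are missing from their shares, since most such tails are recorded at P169. Of the reads at P169, 25.4% and 36.2% were tailed with MTR4 lost against 4.46% to 12.7% in the controls. How much this adds to the differences at P167 and P168 was not tested. P207, which the rule also named, rested on 1 read in each mtr4 library and on 1 to 4 reads in the controls.

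**Figure D2:**
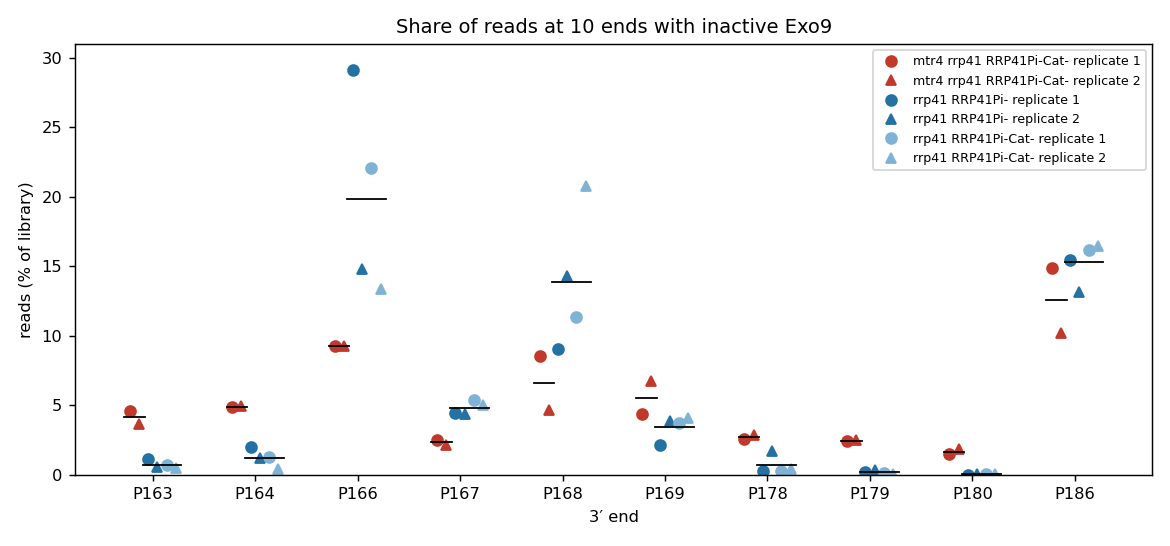
Share of reads (% of library) at 10 ends, with a point for each of the 6 libraries (colour by genotype, shape by replicate) and a black line for each group mean. The mtr4 libraries lie above the 4 controls at P163, P164, P169, P178, P179 and P180 and below them at P166, P167 and P168, and the groups overlap at P186.

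P169 lay above the controls as well, with 4.34% and 6.73% against 2.16%, 3.84%, 3.71% and 4.08% (limma adjusted p = 0.704). This value depends on how A tails are recorded. An A tail after P167 or P168 is recorded at P169, apart from a single A after P167, since P168 and P169 each end in an encoded A. With encoded A before a recorded A tail counted as tail, the difference fell from 2.08 to 0.64 points (exact permutation p = 0.533). Reads recorded as untailed were not moved.

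At the remaining main intermediates the groups overlapped. P186, the most frequent end with MTR4 lost, had 14.9% and 10.2% of the reads against 15.4%, 13.1%, 16.2% and 16.5% in the controls, with replicate 1 inside the range of the controls (exact permutation p = 0.200). P176 had 0.858% and 0.826% against 0.185%, 2.44%, 0.236% and 0.569%, within the range of the controls (exact permutation p = 1). The highest of these was replicate 2 of rrp41 RRP41Pi-, and without it both mtr4 libraries lay above the controls, by 0.51 points on average. P161 had 1.51% and 0.586% against 0.864%, 0.793%, 0.307% and 0.129% (exact permutation p = 0.267). P176 and P161 were thus rare in all 6 libraries. The ends from P157 to P160 held 2.79% ± 0.17 (SD, n = 2) of the reads with MTR4 lost and 2.75% ± 0.79 (SD, n = 4) in the controls.

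Over all 124 ends tested, the groups did not overlap at 19 ends that were higher with MTR4 lost (15.3%) and at 4 that were lower (3.23%). Ends beyond the main window, from P201, were more frequent as well. They summed to 3.95% and 5.32% against 3.70%, 3.48%, 3.32% and 2.15%, a difference of 1.48 points (exact permutation p = 0.0667). The RNA was selected by size before amplification, so that such long fragments may be underrepresented in all libraries. A base change, T137C, marks part of the rRNA repeats. It was present in 67.2% and 54.4% of the reads with MTR4 lost and in 51.4% to 76.5% in the controls, and the share of P178 to P184 was higher by 10.04 points within reads with the reference base and by 9.29 points within reads with T137C.

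Untemplated tails were several times more frequent with MTR4 lost. Reads with a tail of at least 1 nt made up 12.5% and 17.6% of the mtr4 libraries (95% Wilson intervals 11.8 to 13.2 and 16.8 to 18.6) and 4.01%, 5.31%, 2.74% and 1.91% of the controls. The lower mtr4 library lay more than 2 times above the highest control. The means were 15.1% ± 3.65 (SD, n = 2) and 3.49% ± 1.49 (SD, n = 4), with an exact permutation p of 0.0667. For tails of at least 2 nt, the shares were 7.13% and 12.4% against 3.08%, 3.11%, 1.74% and 1.14%. For tails of at least 6 nt they were 4.57% and 8.26% against 1.85%, 1.83%, 1.16% and 0.698%. The Wilson intervals of the mtr4 replicates do not overlap, so these differ from each other by more than counting error.

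**Figure D3:**
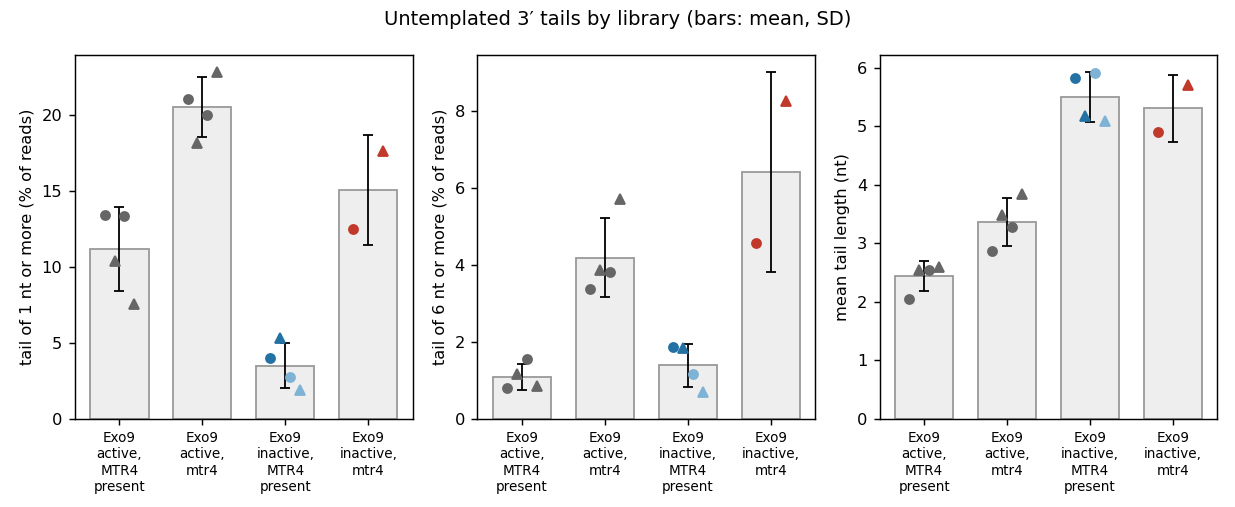
Share of reads with a tail of at least 1 nt (left), with a tail of at least 6 nt (middle) and mean tail length in nt (right), with points for libraries, bars for group means and lines for the SD. With inactive Exo9 the tailed share was 15.1% with MTR4 lost and 3.49% in the controls, while the mean tail length was 5.30 and 5.50 nt.

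The lengths of the tails overlapped between the groups. Their mean was 4.90 and 5.70 nt in the mtr4 libraries against 5.82, 5.17, 5.91 and 5.08 nt in the controls (exact permutation p = 0.467). The share of tails of at least 6 nt among all tails was 36.6% and 46.8% against 34.5% to 46.2%. In the mtr4 libraries the distribution had a first maximum at 1 nt and a second around 8 and 9 nt. The controls also had their maximum at 1 nt, and on few reads runs of 7 and 8 A (21 and 16 reads) were among their commonest tails of at least 2 nt. The median length of tails of at least 2 nt was 7 and 8 nt in the mtr4 libraries and 7 to 8 nt in the controls. Among tails of at least 2 nt that hold only A, that of 2 A was the commonest in the mtr4 libraries (128 reads). The next were the following, shown because they lie in the second maximum.
tail of 8 nt, 101 reads: AAAAAAAA
tail of 9 nt, 97 reads: AAAAAAAAA
Of the commonest tails of at least 6 nt that mix A with other bases, 3 of like length are shown. Shorter mixed tails were not ranked.
tail of 8 nt, 8 reads: AATAAAAA
tail of 9 nt, 7 reads: AAAAAAAAG
tail of 9 nt, 7 reads: TAAAAAAAA

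**Figure D4:**
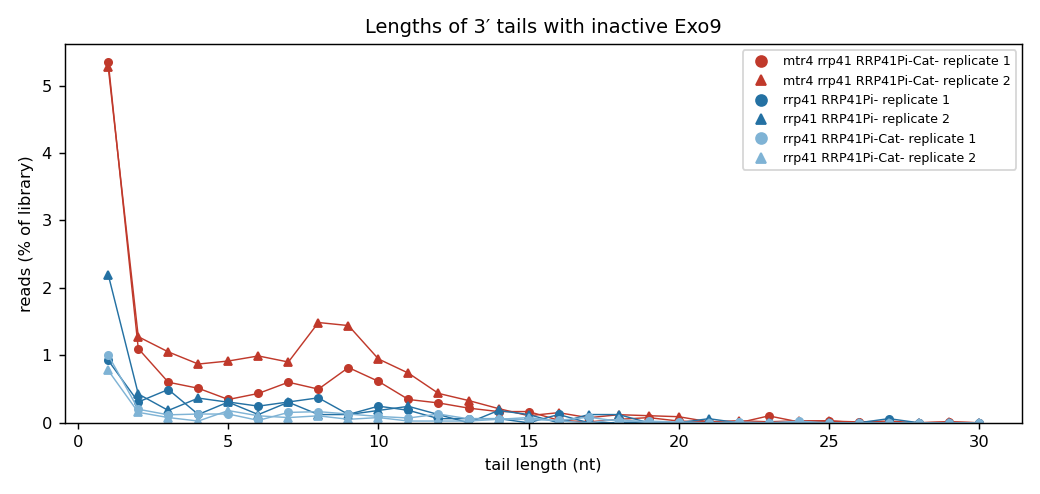
Share of reads (% of library) against tail length in nt for the 6 libraries with inactive Exo9, a line for each library. Both mtr4 libraries lie above the controls at 1 nt, where they have 5.35% and 5.27% of the reads, and form a second maximum near 9 nt.

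In composition, the tails of the mtr4 libraries held more A. A made up 92.1% and 93.6% of the tail nucleotides against 90.5%, 87.1%, 86.2% and 85.6% in the controls (exact permutation p = 0.0667). G was lower, with 4.08% and 3.40% against 5.29% to 7.45%, and so was C, with 0.921% and 0.582% against 1.59% to 3.28%, while T overlapped. Tails of at least 2 nt that mix A with other bases were 21.0% and 22.0% of all tails against 27.2% to 29.9% in the controls. As a share of reads, however, every class of A-containing tail was more frequent with MTR4 lost, single A with 4.47% and 4.27% against 0.388% to 1.40%, and runs of 6 to 30 A with 2.60% and 5.18% against 0.362% to 1.05%. In the scan of 20 tail sequences limma called none higher and none lower (0%), with 2 at an unadjusted p under 0.05 and voom calling 1 lower. The run of 9 A was the only sequence whose groups did not overlap, and it was higher (5%). It made up 4.46% ± 0.79 (SD, n = 2) of the tails with MTR4 lost and 1.37% ± 1.06 (SD, n = 4) in the controls (limma adjusted p = 0.399).

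The position of the tails also differed between the groups. With MTR4 lost, the mean end of tailed reads from 140 to 200 was 173.1 and 174.5 nt, against 163.1, 167.6, 164.8 and 166.1 nt in the controls. The difference of 8.46 nt was larger than the spread in both groups (exact permutation p = 0.0667), whereas untailed reads differed by -0.095 nt on average. Of all tailed reads, 32.2% and 37.0% ended from P178 to P187 in the mtr4 libraries against 7.69%, 12.6%, 7.33% and 4.05% in the controls. From P157 to P161 the order was reversed, with 7.59% and 3.40% against 46.2%, 17.2%, 28.0% and 31.1%. The rare tails of the controls were thus found more often at the short ends around P160, and those of the mtr4 libraries at longer ends.

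In the scan of the ends of tailed reads, with 34 ends tested, 2 rose (5.88%) and 4 fell (11.8%) as a share of tailed reads. P186 rose, with 6.67% and 11.3% of the tailed reads (65 and 133 reads) against 0%, 2.30%, 1.29% and 0% (0, 2, 3 and 0 reads; log2 fold change 2.85 ± 0.75 (SE), limma adjusted p = 0.0345). P180 rose from a single tailed read over all 4 controls to 50 and 62 reads (log2 fold change 3.0 ± 0.83 (SE), limma adjusted p = 0.0389). P160 fell, with 1.03% and 1.36% against 9.23%, 5.75%, 9.05% and 9.46% (log2 fold change -2.82 ± 0.55 (SE), limma adjusted p = 0.0117). P157, P158 and P154 also fell, with log2 fold changes of -3.55, -2.96 and -3.67. These falls are shares of tailed reads, which were more frequent with MTR4 lost. An end with an unchanged share of tailed molecules among all reads would therefore also fall here. At P160 the tailed reads numbered 10 and 16 against 6, 5, 21 and 7, and their share of all reads was not tested. P154 rests on 0 to 5 reads in each control and overlaps between the groups. The groups did not overlap at 9 ends that were higher (26.5%) and at 3 that were lower (8.82%). The controls held only 65, 87, 232 and 74 tailed reads, so that their shares of tailed reads are coarse. Left out in turn, each mtr4 library and 3 of the controls ended the calls of P186 and P180, which stayed only without replicate 2 of rrp41 RRP41Pi- (adjusted p 0.0132 for both). The call of P180 was also lost with 2 reads added (adjusted p = 0.0513) and in thinned libraries (adjusted p = 0.0674). Without replicate 2 of mtr4 rrp41 RRP41Pi-Cat- no end passed, and without its replicate 1 only P157 did.

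Which tails can be recorded depends on the sequence, and this bears on the named ends. A tail of A is not seen where the next encoded base is A, and the authors removed reads whose second tail nucleotide equals the reference base. Among the 1673 tails of at least 2 nt in these libraries, none had such a second nucleotide. P166 is followed by G and A, so that runs of A could not be recorded there, and P163, P167 and P168 are each followed by A. No tail that starts with 2 A occurred at any of these ends. Their low tailed shares, such as 1.39% and 3.08% at P166 with MTR4 lost and 0% to 0.212% in the controls, cannot be compared with those at other ends. At the 37 ends from 140 to 200 where neither of the next 2 bases is A, 19.1% and 30.02% of the reads were tailed with MTR4 lost against 8.26%, 9.03%, 4.89% and 3.51% in the controls, a comparison added after seeing the data (exact permutation p = 0.0667).

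At single ends of this kind the tailed share separated the genotypes. At P186, 5.59% and 19.5% of the reads were tailed with MTR4 lost against 0%, 0.930%, 0.219% and 0% in the controls. For the counts of 0 in the 250 and 637 reads of this end, the 95% Wilson intervals reach 1.51% and 0.599% (counting error only). These tails were long, with a mean of 8.31 and 8.95 nt in the mtr4 libraries, and few of them were single nucleotides (4.62% and 5.26%). P185 behaved alike, with 11.3% and 25.0% against 1.67%, 2.02%, 1.34% and 0%. At P164 the tailed share was 25.6% and 34.5% against 12.5%, 5%, 6.54% and 0%, the controls having 16 to 107 reads at this end. At P169 it was 25.4% and 36.2% against 11.4%, 12.7%, 4.46% and 5.70%. P176, rare as it was, was tailed in 40.3% and 47.3% of its reads against 0%, 12.5%, 25.0% and 22.7%. The controls had only 3, 40, 20 and 22 reads at this end, so that their shares are coarse. At each of these ends the difference reached an exact permutation p of 0.0667. P164, P169 and P176 end in an encoded A. Their tailed reads may thus include longer A tails of P163, of P167 and P168, and of P175.

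At the shorter ends P157, P160 and P161 the mean tailed shares were lower with MTR4 lost. Of the reads from P157 to P160, 18.2% and 16.0% were tailed against 38.9%, 19.0%, 27.3% and 26.2% in the controls, with both mtr4 libraries below (exact permutation p = 0.2). At P157 the shares were 18.3% and 7.69% against 33.3%, 20%, 20.3% and 18.2%, where the groups overlapped (exact permutation p = 0.267). P161 was tailed in 30.5% and 23.1% of its reads with MTR4 lost against 64.3%, 30.8%, 65.4% and 40.0%, on 5 to 118 reads in each library, with both mtr4 libraries below the controls (exact permutation p = 0.133). P160 was tailed in 15.6% and 30.8% against 75.0%, 27.8%, 48.8% and 43.8%, where the groups overlapped (exact permutation p = 0.267). Among the 9 ends with at least 20 reads in each of the 6 libraries, both mtr4 libraries had a higher tailed share than all 4 controls at every end. This set was taken after seeing the data and does not include P157, P160 or P161. It holds P166, P167, P168 and P170, where runs of A cannot be recorded. P169 also holds A tails of P167 and P168, so the ends are not independent.

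**Figure D5:**
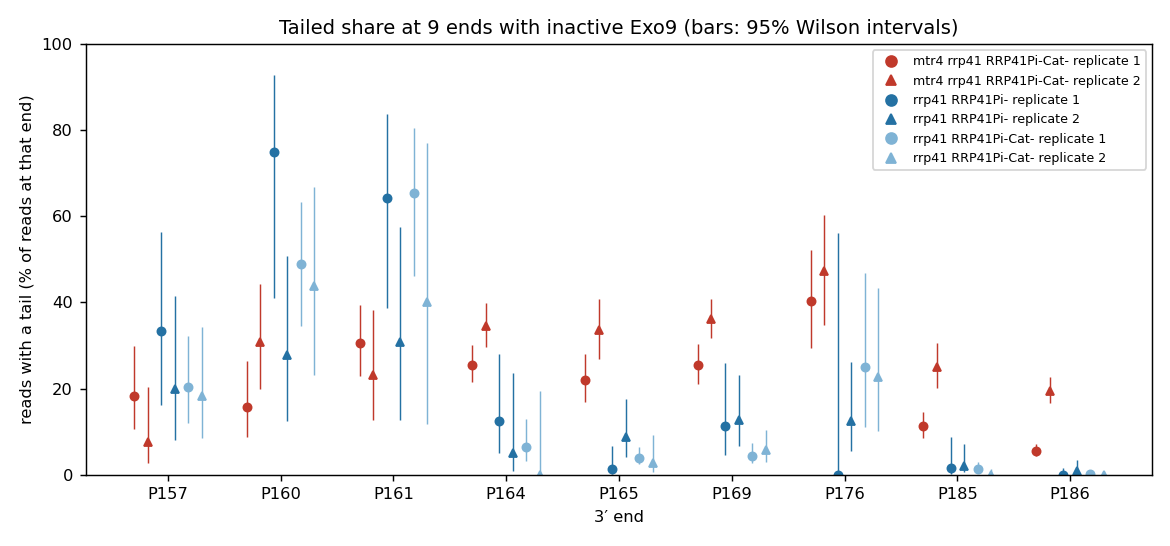
Share of the reads at an end that carry a tail (%), at 9 ends, with a point for each of the 6 libraries and 95% Wilson intervals as vertical lines. The mtr4 libraries lie above the controls from P164 to P186, and at P157, P160 and P161 they lie low or within the range of the controls.

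With active Exo9, in 4 libraries of mtr4 and mtr4 rrp41 RRP41WT against 4 of Col-0 and rrp41 RRP41WT, loss of MTR4 was accompanied by higher tailed shares as well. The tailed share was 20.5% ± 1.96 (SD, n = 4) against 11.2% ± 2.79 (exact permutation p = 0.0286, the smallest possible for 70 relabelings). There the mean tail length was higher too, with 3.36 ± 0.40 nt against 2.43 ± 0.26 nt. The ends from P178 to P184 held 8.06% ± 0.97 against 2.81% ± 1.07. The recorded share of P168 was lower, with 2.56% ± 0.36 against 12.4% ± 2.38. P176 was higher, with 11.7% ± 1.92 against 7.002% ± 2.03. At P186, 6.40% ± 2.11 of the reads were tailed in the mtr4 libraries with active Exo9 against 0.0760% ± 0.090.

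The difference between the effects of MTR4 loss with inactive and with active Exo9 was tested at 209 ends, and limma called none (0%), with 13 at an unadjusted p under 0.05 and voom also calling none. On the arcsine scale 6 ends passed. On the log2 scale, the effect with inactive Exo9 minus that with active Exo9 was 1.95 ± 0.79 (SE) at P179 (adjusted p = 0.599), 1.92 ± 0.92 at P180 (adjusted p = 0.707), 2.22 ± 0.91 at P161 (adjusted p = 0.599) and -0.074 ± 1.01 at P176 (adjusted p = 0.985). It had the opposite sign at P157, with -2.16 ± 0.70, and at P158, with -2.08 ± 0.74 (adjusted p = 0.565 for both). The difference in tail length between the 2 states of Exo9 was not tested.

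Compared with the other backgrounds with inactive Exo9, rrp6L2 rrp41 RRP41Pi-Cat- and RRP44KD rrp6L2 rrp41 RRP41Pi-Cat- (4 libraries), the ladder from P178 to P184 overlapped in size, with 9.78% ± 0.70 (SD, n = 2) in mtr4 rrp41 RRP41Pi-Cat- and 6.90%, 11.4%, 5.65% and 8.71% there (exact permutation p = 0.467). The tailed share overlapped as well, as these plants had 16.6%, 12.7%, 34.1% and 29.1% (exact permutation p = 0.400). The place of the tails differed in part. In these plants 4.58%, 3.59%, 5.30% and 1.49% of the tailed reads ended from P157 to P161. This overlapped the 7.59% and 3.40% with MTR4 lost (exact permutation p = 0.467). At P164, 49.4%, 39.5%, 51.1% and 44% of their reads were tailed, all above the 25.6% and 34.5% with MTR4 lost. The tailed shares at P169 and P176 overlapped. At P186, 0.926%, 0.421%, 1.39% and 2.02% of the reads were tailed in the other backgrounds, all below the 5.59% and 19.5% with MTR4 lost, and at P185 3.72%, 3.95%, 9.49% and 6.12%, all below 11.3% and 25.0% (exact permutation p = 0.0667 at both ends, the smallest possible).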

How the data were processed

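Per the labels and the methods of the study, total RNA of rosette leaves was ligated to an adapter and selected by size, and 5′ ETS molecules were then amplified and sequenced. The authors deduplicated reads by their sequence and random nucleotides, matched them to the rRNA repeat with custom scripts and trimmed unmatched 3′ nucleotides, up to 30 nt, as tails. Reads were removed if the reference base recurred at the second nucleotide of the tail, and long tails were counted only if they held AAA or TTT. The deposited table gives, without normalization, the encoded sequence, the 3′ end and the tail of each read. The last 20 encoded nt matched the reference in 100% of the reads, and the whole encoded stretch did in 44.1%.

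Shares were computed per library. Scans used limma 3.58.1 (R 4.3.3) on log2 shares with 0.5 reads added, features with at least 10 reads over the libraries fitted and an adjusted p threshold of 0.05. Single measures were compared by two-sided exact permutation tests, all of them without adjustment over measures. Python 3.11.15, pandas 2.3.3 and scipy 1.17.1 were used. Intervals are 95% Wilson intervals. Intervals and the floor of 3 reads cover counting error only.

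Named ends are P161, P168, P176 and P186, P166, and the 6 higher and 6 lower ends with the largest mean difference, those past the threshold first and then those whose groups do not overlap. For tailed reads and tail sequences 5 in each direction were taken. The members and lists were chosen with earlier results of these data known. The alternatives were each library left out, a replicate block, rrp41 RRP41Pi-Cat- as the only control, thinning to 1621 reads, other sets of reads, pseudocounts, filters and scales, and all 26 libraries in the fit.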

Additional observations from a re-analysis of the deposited data

Results flagged for a closer look

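Among the 4 control libraries, 3 of the 46 values tested for a library far from the other 3 were set apart in this way, and chance sets about 1 in 20 apart. Replicate 2 of rrp41 RRP41Pi- had 2.44% of its reads at P176, where the next control had 1.87 points less. The same library had 1.71% at P178, 1.27 points above the next control. Replicate 1 of rrp41 RRP41Pi- had a tailed share of 33.3% at P157, 13.0 points above the next control.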

How the results depend on the processing

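The number of ends called was the result that depended most on the processing. Against 2 in the fit reported, it ranged from 0 to 6 with single libraries left out and was 10 with rrp41 RRP41Pi-Cat- as the only control, 4 in thinned libraries, 4 within reads ending from 140 to 200, 4 with all 26 libraries in the fit, 1 without a filter, 9 on the arcsine scale, 11 with voom, 6 within reads with the reference base and 5 within reads with T137C. For tailed reads, against 6, it ranged from 0 to 9 with libraries left out and was 15 with 2 reads added, 84 without a filter, 52 with all 26 libraries and 10 with voom. For tail sequences, against 0, it was 6, 327 and 143 in the first 3 of these settings and 1 with voom. Without a filter 80 ends of tailed reads and all 327 sequences were called lower, since the added reads weigh more in the controls with few tailed reads. The test of the difference between active and inactive Exo9 called 6 ends on the arcsine scale and 0 otherwise. The difference in tailed share, 11.6 points, ranged from 8.99 to 14.2 with libraries left out, was 7.49 for tails of at least 2 nt and 18.1 at ends whose next 2 encoded bases hold no A (added after seeing the data). The distance between profiles ranged from 25.0 to 33.7% with libraries left out. With reads within 1 nt added, P169 turned from higher to lower, with -4.70 points, as P168 then enters. Of the other values for single ends and regions, 552 kept their call or moved by less than the replicate spread, 78 moved by more and 25 lost their call. Apart from the changes given with a reason, the cause was not tested. Mean end, mean tail length and A content moved by less than the replicate spread in each alternative run. Between genotypes, the deviations of replicate 1 over 61 ends had correlations of -0.092, -0.434 and 0.853, the last for the 2 control genotypes. In both of these, P166 was higher in replicate 1 (29.1% and 22.1%) than in replicate 2 (14.8% and 13.3%). P168 was lower in replicate 1 (9.07% and 11.4%) than in replicate 2 (14.3% and 20.8%). The labels name no batch shared by a number, and whether libraries of the same number share a growth time was not tested. With the replicate block, 2 ends, 6 ends of tailed reads and 0 tail sequences were called, as without it, and the exact test of tailed shares gave p = 0.111, the smallest of 9 relabelings. With 1621 to 8469 reads and 65 to 232 tailed reads in the controls, shares of tailed reads are coarse.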
